A study of Gossypium hirsutum with 63 samples.

Results

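The 10 genes described here are A and D copies annotated as 5 enzymes known from Arabidopsis to make sporopollenin, the polymer of the outer pollen wall. They were taken by locus name out of 80325 genes in the deposited expression table of upland cotton (Gossypium hirsutum), an allotetraploid that carries an A and a D subgenome. The male sterility acyl-CoA reductase is Gh_A09G1215 and Gh_D09G1221, CYP703A2 is Gh_A12G1014 and Gh_D12G1132, and CYP704B1 is Gh_A12G1506 and Gh_D12G2768. Acyl-CoA synthetase 5 is Gh_A03G1091 and Gh_D02G1514, and dihydroflavonol 4-reductase-like1 is Gh_A12G0097 and Gh_D12G0110. A sporopollenin or exine term of the Gene Ontology (GO) was given to 6 of the 10 genes, and to neither copy of the reductase or of CYP703A2. The locus names place these genes on chromosomes A03, A09, A12, D02, D09 and D12. The table itself carries no gene start, end or exon, so their positions within those chromosomes are not given.

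The exine is the tough outer layer of a pollen grain, and sporopollenin is its main material. In Arabidopsis its precursors are made in the tapetum, the cell layer that lines the pollen sac and feeds the developing microspores. Acyl-CoA synthetase 5 activates fatty acids, CYP703A2 and CYP704B1 hydroxylate them, and the male sterility acyl-CoA reductase turns them into fatty alcohols. Polyketide synthases extend the activated and hydroxylated chains, and dihydroflavonol 4-reductase-like1 reduces the products. These genes are known there for a short period of expression in young anthers.

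RNA was sequenced from 3 F1 hybrids and their 4 inbred parents grown in the field. The hybrids were H (SJ48x98-15, high yield heterosis), M (SJ48x51-2, medium) and L (SJ48xT-8, low). Their paternal parents were B (Z98-15), C (851-2) and D (DT-8), and the maternal parent of all 3 hybrids was A (SJ48). These names are spelled as in the labels, which shorten the paternal name within each hybrid. Flower buds, leaves and ovules 1 day post anthesis, all labelled squaring stage, gave 3 libraries for each genotype and tissue, 63 in all. The study calls the 3 libraries biological replicates. According to its methods, buds of several small sizes were pooled in a bud sample. In such bulk tissue, fewer cells of a type and less RNA per cell cannot be told apart. The values are FPKM, that is fragments per kilobase of transcript, scaled to the mapped fragments of each library, so the depth of a library is not visible in them. Total FPKM lay between 413789 and 454309 in bud libraries, 410556 and 449250 in leaf libraries, and 418915 and 477980 in ovule libraries. The genes were chosen by function and by their FPKM in the bud libraries, with earlier results of these data known. Bud levels and their differences between libraries are therefore given as a description.

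Among the 21 flower bud libraries, the male sterility acyl-CoA reductase ranged over more than 2 orders of magnitude, and the libraries of each single genotype differed strongly. The A copy, Gh_A09G1215, had 1119, 41.4 and 661 FPKM in replicates 1, 2 and 3 of H, 313, 14.9 and 3.88 FPKM in M, and 630, 245 and 10.1 FPKM in L. In the parents it had 347, 14.8 and 5.84 FPKM in B, 782, 26.8 and 8.36 FPKM in C, 981, 26.0 and 690 FPKM in D, and 1375, 41.8 and 9.15 FPKM in A. In 10 libraries the gene was above 100 FPKM and in the other 11 it was at most 41.8 FPKM, with no library between 41.8 and 245 FPKM. The 10 were replicate 1 of all 7 genotypes, replicate 2 of L, and replicate 3 of H and of D. Every genotype had libraries on both sides of this gap, so the genotypes overlapped throughout. The limit of 100 FPKM was set after the values were seen and only names the libraries.

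The D copy of the reductase, Gh_D09G1221, followed the same pattern. It lay between 272 and 1195 FPKM in those 10 libraries and between 1.90 and 41.1 FPKM in the other 11. The A copy of CYP703A2, Gh_A12G1014, a fatty acid in-chain hydroxylase, had 629, 19.3 and 433 FPKM in H, 172, 11.02 and 1.47 FPKM in M, and 278, 167 and 6.48 FPKM in L. In the parents it had 286, 9.98 and 2.43 FPKM in B, 543, 18.3 and 3.36 FPKM in C, 766, 18.9 and 282 FPKM in D, and 765, 17.8 and 2.85 FPKM in A. It too was above 100 FPKM in the same 10 libraries and below 20 FPKM in the rest.

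The remaining enzymes were high in fewer libraries. CYP704B1, a fatty acid omega-hydroxylase, was above 100 FPKM in 7 of the 10 libraries with both of its copies. Its A copy, Gh_A12G1506, had 416, 15.7 and 20.3 FPKM in H, 162, 6.80 and 0.879 FPKM in M, and 21.2, 176 and 3.63 FPKM in L. In the parents it had 11.6, 0.733 and 0.464 FPKM in B, 174, 4.81 and 1.41 FPKM in C, 275, 6.78 and 197 FPKM in D, and 386, 12.04 and 1.68 FPKM in A. Replicate 1 of B, replicate 3 of H and replicate 1 of L, which were high for the reductase and for CYP703A2, had 11.6, 20.3 and 21.2 FPKM of it.

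Acyl-CoA synthetase 5 had the same 7 libraries above 100 FPKM. Its D copy, Gh_D02G1514, had 913, 34.6 and 13.5 FPKM in H, 352, 14.9 and 1.98 FPKM in M, and 9.002, 495 and 9.30 FPKM in L. In the parents it had 8.07, 1.33 and 1.04 FPKM in B, 449, 15.3 and 3.74 FPKM in C, 502, 12.6 and 231 FPKM in D, and 841, 20.0 and 3.85 FPKM in A. Replicate 1 of B and of L thus held no more of this copy than several libraries in which every member was low.

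Dihydroflavonol 4-reductase-like1 was the least abundant of the 5 enzymes in most bud libraries. Its D copy, Gh_D12G0110, had 206, 8.31 and 3.50 FPKM in H, 122.9, 5.16 and 1.07 FPKM in M, and 3.15, 168 and 3.83 FPKM in L. In the parents it had 2.98, 1.94 and 1.51 FPKM in B, 127.7, 5.20 and 1.84 FPKM in C, 280, 8.39 and 18.5 FPKM in D, and 155, 5.55 and 1.88 FPKM in A. It was above 100 FPKM in 6 libraries, and replicate 3 of D, high for the other enzymes, had 18.5 FPKM. Its A copy, Gh_A12G0097, passed 100 FPKM in replicate 1 of D alone, with 135 FPKM.

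**Figure D1:**
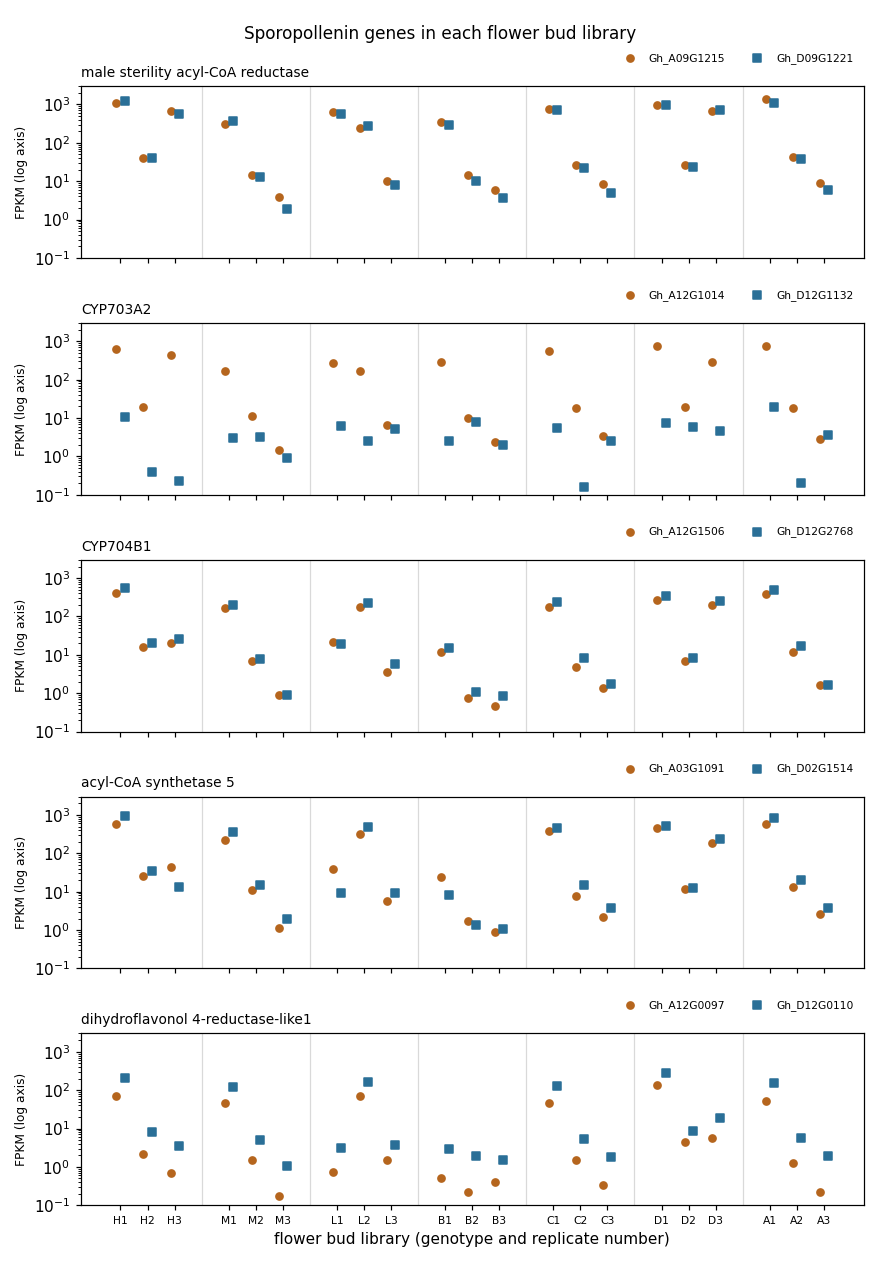
FPKM (log axis) of the A copy (circles) and D copy (squares) of each enzyme in the 21 flower bud libraries, by genotype and replicate number. Replicate 1 of B, replicate 3 of H and replicate 1 of L are high for the male sterility acyl-CoA reductase and for the A copy of CYP703A2 and low for the other enzymes, and the D copy of CYP703A2 stays below 20 FPKM in every library.

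The proportions of the enzymes within a library separated the 10 libraries further. CYP703A2 kept a similar proportion to the reductase: Gh_A12G1014 was between 40.9% and 82.4% of the FPKM of Gh_A09G1215. The CYP704B1 A copy, Gh_A12G1506, stood at 3.34%, 3.08% and 3.37% of Gh_A09G1215 in B replicate 1, H replicate 3 and L replicate 1. In the other 7 libraries it stood between 22.2% and 72.1%. The acyl-CoA synthetase 5 A copy, Gh_A03G1091, stood at 6.97%, 6.84% and 6.08% of Gh_A09G1215 in the same 3 libraries, at 27.5% in D replicate 3, and at 132% in L replicate 2. The dihydroflavonol 4-reductase-like1 A copy spanned the widest range, with 0.151%, 0.103% and 0.119% in the 3 libraries, 0.819% in D replicate 3, and 28.6% in L replicate 2. M replicate 1 and L replicate 2 had the lowest 2 values of Gh_A09G1215 among the 10 libraries and the highest 2 percentages of Gh_A12G1506, Gh_A03G1091 and Gh_A12G0097. The 3 libraries with low percentages came from B, H and L. Another library of H and of L had high percentages, so within H and within L the libraries differed. B had no other library among the 10, so genotype and library cannot be told apart there.

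**Figure D2:**
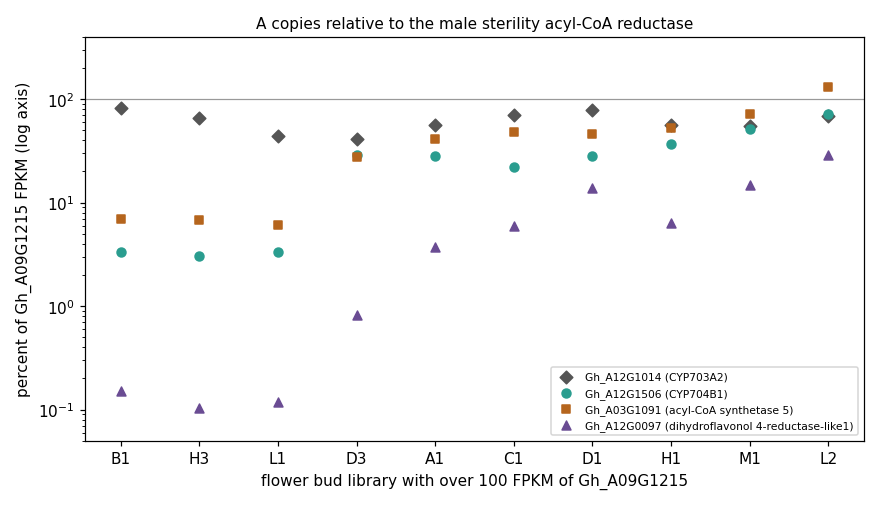
Level of 4 A copies as a percentage of Gh_A09G1215 (log axis) in the 10 bud libraries with over 100 FPKM of that gene. CYP703A2 stays between 40.9% and 82.4%, and dihydroflavonol 4-reductase-like1 lies near 0.1% in B replicate 1, H replicate 3 and L replicate 1 and at 28.6% in L replicate 2.

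In the low libraries the members kept low levels together. Each value in A replicate 2 was between 2.31% and 3.57% of that in A replicate 1 for the 9 members other than Gh_D12G1132, and between 0.334% and 1.21% in A replicate 3. The corresponding ranges were 3.01% to 4.403% in H replicate 2 against H replicate 1, and 2.39% to 3.28% in D replicate 2 against D replicate 1. In B, whose replicate 1 was itself low for 3 of the enzymes, the range was 3.49% to 65.0% in replicate 2 and 0.849% to 75.1% in replicate 3, so the levels were less alike there. The 10 members summed to 5737 FPKM in A replicate 1, or 1.39% of all FPKM of the library, and to 14.3 FPKM in M replicate 3, or 0.00339%.

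The D copy of CYP703A2, Gh_D12G1132, departed from this pattern. It had 10.4, 0.395 and 0.232 FPKM in H, 2.96, 3.22 and 0.913 FPKM in M, and 6.19, 2.55 and 5.17 FPKM in L. In the parents it had 2.53, 8.01 and 2.00 FPKM in B, 5.46, 0.163 and 2.48 FPKM in C, 7.37, 5.77 and 4.66 FPKM in D, and 19.9, 0.198 and 3.53 FPKM in A. In B replicate 2, where the A copy had 9.98 FPKM, this copy had its highest value among the libraries of B.

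Over the 21 bud libraries the 45 pairs of members had a median Pearson r of 0.90 on log2(FPKM + 1), and a median Spearman rho of 0.88. Without the 2 libraries farthest from the median, the median r was 0.87. The libraries fell on both sides of a gap, so the values within each side are also given. Within the 10 high libraries the median r was 0.61, with a lowest value of 0.22, and within the 11 low libraries it was 0.87, with a lowest value of -0.44. Without Gh_D12G1132 the lowest r within the 11 low libraries was 0.70 over 36 pairs. These correlations describe libraries that share genotypes and total FPKM and carry no test.

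The comparison of genotypes asks whether hybrids and parents differ in these genes beyond the spread of their libraries. In buds no difference was detected. The members were chosen partly on these bud values, and their libraries differed strongly within genotypes. The bud tests therefore cannot show that genotypes were alike, and are given as a description. The moderated F test of limma over the 7 genotypes called 0 of 10 members at an adjusted p under 0.05, where 3.3% of the 63805 genes tested were called. Adjusted p lay between 0.778 and 0.885, and 0 of 10 members had an unadjusted p under 0.05. Genotype took between 17.2% and 25.7% of the variance of a member, against a median of 33.9% over all genes tested. The SD between libraries of a genotype was between 1.23 and 3.26 on the log2 scale, against a median of 0.24 over all genes tested. Part of this spread ran with library number, since replicate 1 was among the high libraries in all 7 genotypes. With library number as a block, 0 of 10 members were called as well.

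Genotype means carried the same spread. Gh_A09G1215 averaged 607 ± 541 FPKM in H, 111 ± 176 FPKM in M and 295 ± 313 FPKM in L (SD, n = 3 each). In the parents it averaged 122.6 ± 195 FPKM in B, 272 ± 442 FPKM in C, 566 ± 490 FPKM in D and 475 ± 779.5 FPKM in A. For 7 of the 10 members, Gh_D02G1514, Gh_A03G1091, Gh_A12G1506 and Gh_D12G2768 among them, B had the lowest mean. No 2 neighbours in the order of genotype means lay further apart than the larger of their SDs, for any of the 10 members.

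In the pairwise contrasts 0 of 10 members were called at an adjusted p under 0.05 and a log2 fold change beyond 1, and 0 of 10 had an unadjusted p under 0.05 in any of the 12 contrasts. The values of H against B were the most distant from 0. Gh_D02G1514 was 4.47 higher in H than in B on the log2 scale (SE 2.38, adjusted p = 0.520 by limma), and 9 of 10 members had a value above 0. Against A, the same gene was -3.65 in B (SE 2.38, adjusted p = 0.598 by limma), and all 10 members had a value below 0. H minus the mean of its parents had a median of 2.61 over the members, M minus the mean of its parents a median of -0.55, and L minus the mean of its parents a median of -0.41. The medians over all genes tested in these contrasts were 0.00, 0.02 and 0.02. The shares of all genes called were 0.218% for H against A, 0.312% for H against B, 0.205% for M against A, 0.552% for M against C, 0.224% for L against A and 0.146% for L against D. They were 0.677% for B against A, 0.52% for C against A and 0.646% for D against A, and 0.0533%, 0.262% and 0.0219% for H, M and L against the mean of their parents. With standard errors of about this size, a log2 difference of 4.47 was not called, so even very large differences between genotypes could go undetected.

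The copies of each enzyme were set side by side within the same libraries. The ratios draw on the bud FPKM that had a part in the choice of the genes, and H, M and L are offspring of A with B, C and D, so the 7 genotypes are not independent. The size of each ratio is given as a description, with no test. FPKM is per length, so copies can be set side by side, although reads of near-identical copies may have been shared between them. For CYP703A2 the A copy exceeded the D copy by 3.66 ± 1.31 on the log2((FPKM + 1)/(FPKM + 1)) scale (SD over 7 genotype means), and was higher in 7 of 7 genotypes and 20 of 21 libraries. In the 10 high libraries the A copy made up 97.5% to 99.9% of the FPKM of the pair, and in the 11 low libraries 44.6% to 99.1%. For dihydroflavonol 4-reductase-like1 the D copy was higher in 21 of 21 libraries, with a log2 ratio of A to D of -1.26 ± 0.15.

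The other pairs were closer to balance on average. CYP704B1 had a log2 ratio of A to D of -0.30 ± 0.09, below 0 in 7 of 7 genotypes, and the male sterility acyl-CoA reductase 0.22 ± 0.17, above 0 in 7 of 7 genotypes. Acyl-CoA synthetase 5 had a log2 ratio of -0.11 ± 0.44 with 3 of 7 genotypes above 0, from -0.57 in C to 0.53 in B. With the median over the libraries of a genotype in place of the mean, this ratio was -0.36.

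In acyl-CoA synthetase 5 the ratio differed between libraries. The A copy had 45.2, 38.3 and 24.2 FPKM in H replicate 3, L replicate 1 and B replicate 1, against 13.5, 9.002 and 8.07 FPKM for the D copy. In the other 7 high libraries the D copy, Gh_D02G1514, was above the A copy, for example 913 FPKM against 591 FPKM in H replicate 1 and 841 FPKM against 570 FPKM in A replicate 1. The 3 libraries are those in which CYP704B1 and dihydroflavonol 4-reductase-like1 were low. Whether the 7 genotypes used the copies in different proportion was tested by permuting the libraries over them (100000 resamples). None of the 5 pairs passed, with unadjusted p between 0.338 and 0.699 and an adjusted p of 0.699 for every pair in this permutation test. Libraries of 1 genotype differed in the ratio, the genotypes are related, and bud FPKM had a part in the choice of the genes. This test therefore cannot show that the proportions were alike. Hybrids as a set were not compared with parents.

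**Figure D3:**
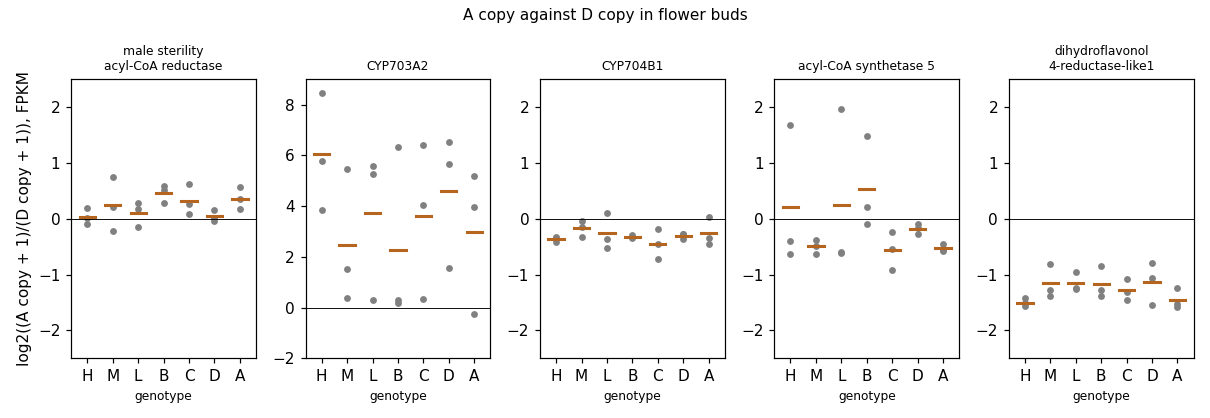
Log2 ratio of the A copy to the D copy of each enzyme in flower buds, after adding 1 FPKM to both, by genotype. Points are libraries and bars are genotype means, and CYP703A2 has its own scale. All bars of CYP703A2 lie above 0 and all bars of dihydroflavonol 4-reductase-like1 lie between -1.50 and -1.13.

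The members were set beside other genes of the pollen wall and the tapetum. A list of 68 other genes annotated to the pollen wall summed to between 340 and 4790 FPKM in the 10 high libraries and between 281 and 391 FPKM in the 11 low libraries. In B replicate 1, H replicate 3 and L replicate 1 its sum was 340, 401 and 360 FPKM, close to the low libraries. In this list 8 of the 68 genes exceeded 100 FPKM in a bud library, and 8 had an r above 0.7 with the members. The 35 genes of a tapetum list summed to 294, 320 and 315 FPKM in those 3 libraries, between 355 and 1013 FPKM in the other 7, and between 145 and 239 FPKM in the 11 low libraries. Floral organ identity genes (76) summed to between 1101 and 1895 FPKM over all 21 bud libraries, meiosis genes (12) to between 12.3 and 18.2 FPKM, and photosynthesis genes (245) to between 811 and 1264 FPKM. Genes named for pollen (63) summed to between 287 and 494 FPKM, with no gap between the high and the low libraries. The part of bud organs or of cell numbers in these levels was not tested.

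**Figure D4:**
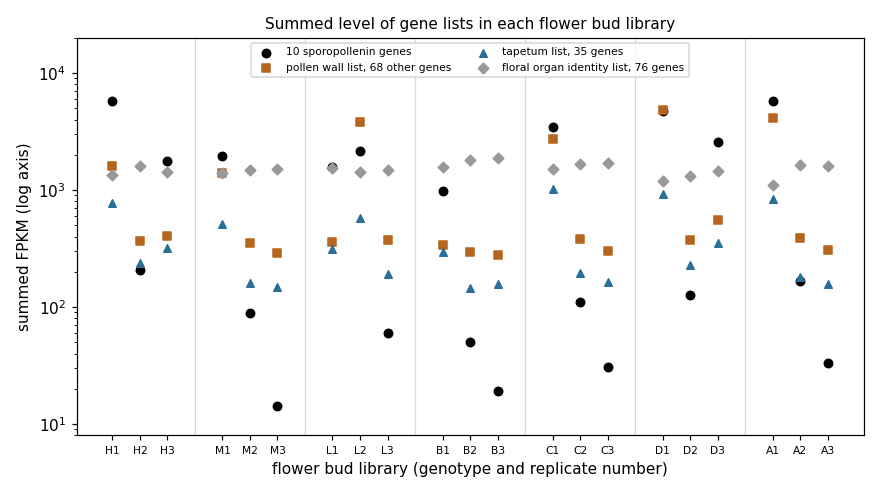
Summed FPKM (log axis) of the 10 sporopollenin genes, of 68 other pollen wall genes, of 35 tapetum genes and of 76 floral organ identity genes in each flower bud library. The sporopollenin genes sum to 14.3 FPKM in M replicate 3 and to 5737 FPKM in A replicate 1, and the floral organ identity genes stay between 1101 and 1895 FPKM.

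Of the pollen wall list, 62 genes were tested in buds and 2 were called by the F test of limma, against 3.3% of all genes. These were Gh_D03G0479, a 4-coumarate:CoA ligase 3 (adjusted p = 0.00601), and Gh_A11G0484, of the nucleotide-sugar transporter family (adjusted p = 0.0211). In the 12 contrasts the list had 1 called gene, higher in C than in A, and 0 in the other 11. Of the tapetum list, 31 genes were tested and 0 were called by the F test. The 5 pollen wall genes with the highest mean in buds were Gh_A02G0175, Gh_D02G0239, Gh_D09G1972 and Gh_A09G1852, of the family 17 glycosyl hydrolases, and Gh_D02G2383, of the pectin lyase-like family. The family 17 includes glucanases that can open beta-1,3-glucans such as callose. Gh_A02G0175 ranged between 0.862 and 1554 FPKM over the bud libraries, with a median of 22.7 FPKM, and Gh_D02G0239 between 0.333 and 1026 FPKM, with a median of 11.8 FPKM.

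Of 25120 described genes with a mean of at least 2 FPKM in buds, 57 had an r above 0.9 with the mean standardised level of the 10 members over the 21 bud libraries. Closest were Gh_D12G1438, an aldehyde dehydrogenase 2B4 (r = 0.98, between 1.85 and 598 FPKM), and the basic helix-loop-helix gene Gh_A12G0337 (r = 0.97), which lay between 17.8 and 241 FPKM. Next came Gh_A09G0157, of unknown function (r = 0.97), and the basic helix-loop-helix gene Gh_D12G0328 (r = 0.97), which is in the tapetum list, as is Gh_A12G0337. They were followed by Gh_A11G3039, of a glycosyltransferase family (r = 0.96), and Gh_D13G1056, a dehydroquinate dehydratase / shikimate dehydrogenase (r = 0.96). The nucleotide-sugar transporter genes Gh_A12G0095 and Gh_D12G0108 (r = 0.95 each) bear locus numbers just below those of the dihydroflavonol 4-reductase-like1 copies, Gh_A12G0097 and Gh_D12G0110. Within the 11 low libraries the r of Gh_D12G1438 was 0.90 and that of Gh_A12G0337 0.63.

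The genes with the lowest r varied little. Gh_A03G1112, a thioredoxin O1 (r = -0.92), lay between 10.8 and 19.1 FPKM over the bud libraries. Gh_D06G0764, a BREVIS RADIX-like 4 (r = -0.89), lay between 4.33 and 8.08 FPKM. Gh_D06G0788, of the cysteine proteinase family (r = -0.89), and Gh_A11G2096, a copper/zinc superoxide dismutase 3 (r = -0.89), completed the lowest 4. Likeness of pattern is given as a description over libraries with the gap described above.

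Other genes with a member's annotation did not share its pattern. The file gives the description of a member to 6 further genes, and 5 of them exceeded 0.5 FPKM in a bud library. Gh_D07G1069 and Gh_A07G0991, annotated as male sterility acyl-CoA reductases, lay between 2.70 and 4.88 FPKM and between 2.01 and 3.90 FPKM in buds. They were higher outside the bud, with medians of 18.4 and 15.6 FPKM in leaf and 23.2 and 24.1 FPKM in ovule. Gh_A08G0044 and Gh_D08G0086, with the same annotation, had medians of 1.26 and 0.714 FPKM in buds, 0 and 0.0775 FPKM in leaf, and 7.72 and 4.98 FPKM in ovule. Gh_A12G0098, a further dihydroflavonol 4-reductase-like1, reached 0.783 FPKM in buds and 1.51 FPKM in ovule.

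Outside the bud the members were at or near 0, except for the reductase copies. Gh_A09G1215 had a median of 41.8 FPKM in buds, against 3.07 FPKM in leaf and 2.35 FPKM in ovule. Gh_A12G1014 had a median of 19.3 FPKM in buds, against 0.414 FPKM in leaf and 0 in ovule. The lowest bud library lay above the highest leaf library for 4 of 10 members, where 9.36% of 66880 genes did so. It lay above the highest ovule library for 9 of 10 members, where 5.99% of 66997 genes did so. The exception in ovule was Gh_D12G1132, with a lowest bud value of 0.163 FPKM and a highest ovule value of 0.311 FPKM. These counts are given with no test, since bud levels had a part in the choice of the genes.

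In leaf, low levels of the members differed between genotypes. Gh_D09G1221 had 1.38, 1.11 and 1.58 FPKM in H, 0.933, 2.13 and 0.760 FPKM in M, and 1.71, 1.12 and 1.61 FPKM in L. In the parents it had 0.103, 0.213 and 0.186 FPKM in B, 1.94, 1.11 and 1.52 FPKM in C, 0.982, 1.53 and 0.667 FPKM in D, and 0.347, 0.0581 and 0.0841 FPKM in A. Both parents of H thus lay below all 3 libraries of H. Gh_A03G1091 was listed at 0 in all 6 leaf libraries of B and A and lay between 0.185 and 0.664 FPKM in the 15 libraries of H, M, L, C and D. Gh_A12G1014 lay between 0.277 and 1.198 FPKM in those 15 libraries and was at most 0.0358 FPKM in the 6 libraries of B and A. For 7 of the 10 members every library of H, M, L, C and D lay above every library of B and A, where 0.06% of 60031 genes did so. This split was set after the values were seen. All of the 7 except Gh_A09G1215 passed the filter only through the higher genotypes, so the count is a description. Gh_A09G1215 was 1 of the 7, with 2.82 to 4.61 FPKM against 1.95 to 2.77 FPKM.

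The F test of limma over the 7 genotypes in leaf called 6 of 8 members that passed the filter, where 6.02% of 60031 genes were called. The filter asked for more than 0.5 FPKM in at least 1 leaf library, and neither copy of dihydroflavonol 4-reductase-like1 passed. The members other than Gh_A09G1215 passed only through the genotypes in which they were higher, so the count is a description and supports nothing. Gh_A09G1215, above the filter in all 21 leaf libraries, had an adjusted p of 0.116 by limma. Under a filter that asks for 1 FPKM or more in every library of some genotype the test called 1 member, without replicate 1, 2 or 3 of B it called 3, and without all libraries of A and B it called 0. Without replicate 1 of A the share of all genes called was 11.1%, and without replicate 2 or 3 of B it was 3.72% or 3.71%. With the members left out, 6 of the 29 genes with this split of leaf libraries exceeded 100 FPKM in a bud library, or 20.7%, against 0.871% of all genes tested. In ovule, 828 other genes had every library of A above those of H, M, L, C and D. Of these, 28 exceeded 100 FPKM in a bud library, or 3.38%, against 0.839% of all genes tested. Both splits were taken from the members, so these shares are a description. The leaf values are at most 1.198 FPKM for every member apart from the reductase copies. Most members had a leaf median over H, M, L, C and D at 0.0573% to 0.116% of their highest bud value. The share was 0.233% for Gh_A09G1215 and 2.73% for Gh_D12G1132. In A and B the leaf median was 0% to 0.0453% of that value, and 0.170% for Gh_A09G1215. The origin of the leaf values was not tested.

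**Figure D5:**
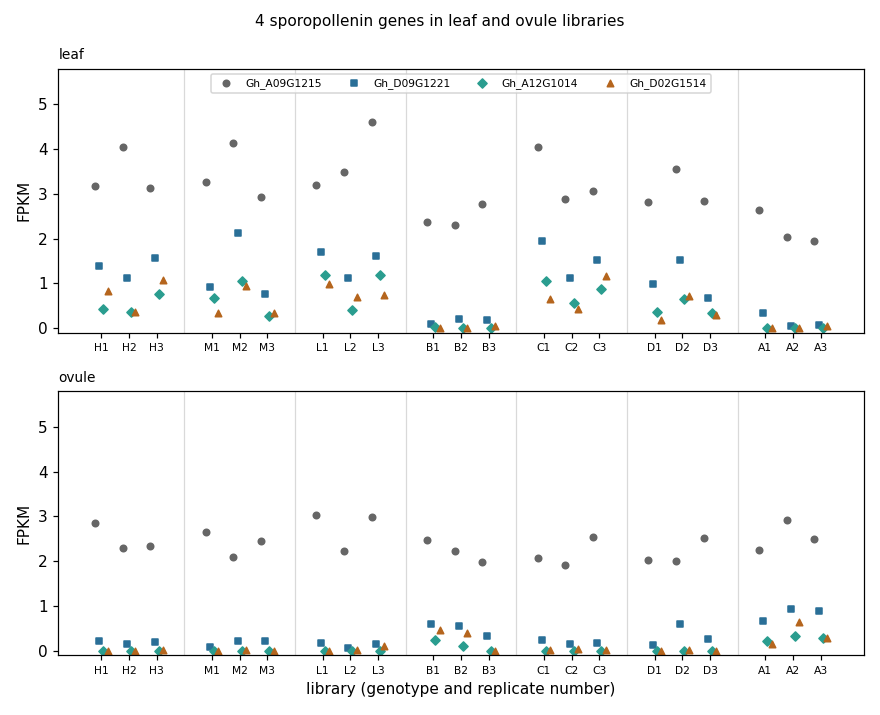
FPKM of Gh_A09G1215, Gh_D09G1221, Gh_A12G1014 and Gh_D02G1514 in each leaf library (top) and ovule library (bottom), by genotype and replicate number. In leaf the libraries of B and A are lowest, and in ovule those of A lie above those of H, M, L, C and D for all but Gh_A09G1215.

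In ovule the libraries of A lay above those of H, M, L, C and D for several members. Libraries of A and B overlapped for some of these, such as Gh_A12G1014. Gh_D09G1221 had 0.220, 0.147 and 0.186 FPKM in H, 0.0899, 0.215 and 0.219 FPKM in M, and 0.164, 0.0544 and 0.141 FPKM in L. In the parents it had 0.592, 0.552 and 0.339 FPKM in B, 0.247, 0.153 and 0.169 FPKM in C, 0.128, 0.597 and 0.261 FPKM in D, and 0.665, 0.940 and 0.890 FPKM in A. Gh_A12G1014 had 0.214, 0.322 and 0.277 FPKM in A and 0.251 and 0.0975 FPKM in replicates 1 and 2 of B, and was listed at 0 in the other 16 ovule libraries. Gh_A09G1215 did not share this pattern, with 1.92 to 3.03 FPKM in the 15 libraries of H, M, L, C and D and 2.25 to 2.91 FPKM in A.

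In ovule 3 members passed the filter, and the F test of limma called 1, Gh_D09G1221, where 19.8% of 59372 genes were called. Gh_D09G1221 passed through 6 libraries and Gh_D02G1514 through 1, so this count too is a description. The share of all genes called was 38.8% without replicate 1 of L, 12.5% without replicate 2 and 12.7% without replicate 3, and 7.78% without the libraries of A and replicates 1 and 2 of B. Without replicate 3 of B the test called 2 members, and without the libraries of A and replicates 1 and 2 of B it called 0. Every library of A lay above every library of H, M, L, C and D for Gh_D09G1221 and Gh_D02G1514 of those 3, where 1.4% of genes did so. This split too was set after the values were seen. According to the study's sequencing summary, base quality was lower in the ovule libraries of A, and in some of B, than in the other ovule libraries, and the part of this in the values was not tested.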

How the data were processed

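RNA-seq of 63 libraries (7 genotypes, 3 tissues, 3 libraries each) was used. The authors trimmed reads, aligned them to the upland cotton genome with HISAT, assembled and quantified transcripts with StringTie, and deposited FPKM per gene. The name of the genome build and how multiply aligned reads were counted are not given in the sources used here. A further 21 FPKM columns belong to no sample and were not used. The columns were assigned to samples by their titles.

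Genes above 0.5 FPKM in at least 1 library of a tissue were tested on log2(FPKM + 1) with limma 3.58.1 (R 4.3.3; trend, robust, Benjamini-Hochberg over all genes tested), checked on simulated data. The proportion of copies was compared between genotypes with permutation tests (scipy 1.17.1). Fold changes of low genes are understated on this scale. Precision is limited by 3 libraries per group, since FPKM shows no depth.

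The members and gene lists were chosen with earlier results of these data known. Lists were matched by words in descriptions and GO terms, and the list for ovule and seed coat matched 0 genes. Named genes are the 10 members, genes sharing a member's description, the 8 most and 4 least alike over bud libraries, and the 5 most abundant of the pollen wall list. The 2 called pollen wall genes were added after their values were seen. Alternatives were another pseudocount (0.1), other filters, median-ratio rescaling, a replicate block and each library left out. No sequence is shown.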

Additional observations from a re-analysis of the deposited data

Results flagged for a closer look

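For 2 of the 3 members that passed the filter in both tissues, the low values in leaf and in ovule ran in opposite directions against A, with no overlap between the libraries compared in either tissue. In leaf, Gh_D09G1221 was higher than in A by 1.02 in H, 0.93 in M, 1.09 in L, 1.11 in C and 0.81 in D on the log2(FPKM + 1) scale. In ovule the same differences were -0.63 in H, -0.64 in M, -0.71 in L, -0.62 in C and -0.48 in D. Gh_D02G1514 was higher than in A by 0.77 in H, 0.57 in M, 0.83 in L, 0.76 in C and 0.44 in D in leaf, and its differences in ovule were -0.42, -0.42, -0.36, -0.39 and -0.42 in the same order. Gh_A12G1014, Gh_A03G1091, Gh_D12G1132 and Gh_D12G2768, which did not pass the filter in ovule, also lay above A in leaf and below A in ovule with no overlap between these libraries. In leaf, 0.06% of 60031 genes had every library of H, M, L, C and D above those of A and B. In ovule, 1.4% of 59372 genes had every library of A above those of H, M, L, C and D. The share of genes with both patterns was not counted. Gh_D02G1514 passed the filter in ovule through 1 library, so the opposite directions are a description. The difference between the tissues was not tested.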

How the results depend on the processing

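In flower buds 0 of 10 members were called in the F test and in each of the 12 contrasts under every alternative run, with a lowest adjusted p of 0.428 in the F test and 0.245 in the contrasts (limma). In leaf the count of 6 was 1 under a filter that asks for 1 FPKM or more in every library of some genotype, 4 with the replicate block, 0 without A and B (chosen after seeing the data), and between 3 and 6 without single libraries. In ovule the count of 1 was 6 with no filter, 0 under the stricter filter, 0 without A and replicates 1 and 2 of B (chosen after seeing the data), and between 1 and 2 without single libraries. With the replicate block it stayed at 1 in ovule. The cause was not tested, beyond the fewer members that a stricter filter leaves. Over all genes tested, same-numbered bud libraries did not all deviate together, with correlations between -0.275 and 0.513 over the 3 numbers. Numbers were therefore not taken as pairs, although replicate 1 was among the high libraries for the members in every genotype. The libraries numbered 1 came closest, with 18 of 21 pairs over 0.1 and a median of 0.266, against medians of 0.0611 and 0.0660 for numbers 2 and 3. With medians over the libraries of a genotype the acyl-CoA synthetase 5 ratio was -0.36. Without single libraries the ratio of the reductase pair lay between 0.19 and 0.26. The median r of members was 0.61 within the 10 high libraries. No result changed direction while called. Without known depth, levels under 1 FPKM cannot be given an error from counting.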
